A study of Drosophila melanogaster with 2 samples.

Results

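Mad peaks at divergent promoters were taken from a chromatin immunoprecipitation of the fly embryo and numbered 760 of the 3590 thresholded peaks, which is 21.2% of the list. A member is a peak whose summit, the base of highest signal, lay within 500 bp of the transcription start site (TSS) of a protein-coding gene, where that TSS had a TSS of another protein-coding gene on the opposite strand 0 to 500 bp upstream of it. Another 1330 summits lay within 500 bp of a protein-coding TSS without such a partner and are called one-direction promoter peaks, and 1500 lay farther from any protein-coding TSS. The members served 722 distinct pairs of TSSs. Within the thresholded list the members were chosen by position alone. The list itself had passed the authors' threshold on reproducibility between the replicates, and no member had a signal below 70.5.

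The study precipitated a Mad-eGFP fusion through its GFP, using an anti-GFP antibody on chromatin of whole Drosophila melanogaster embryos (mixed sex, 0 to 24 h of age), and sequenced the DNA. Both samples came from 1 transgenic line that stably carried Mad with GFP fused to its C terminus, and the labels give no other genotype or treatment. There was 1 group of 2 biological replicates, with chromatin sonicated to 200 to 800 bp; a control sample was not used here. The authors gave 30000 peaks for either replicate and again 30000 for the pool, and the thresholded list holds the peaks kept by the authors' limit on irreproducible discovery. Signal is the value that the authors' peak caller wrote for each peak, in its own units. It describes and ranks peaks within a list. The sources used here do not give read depths. A whole-embryo sample averages over all tissues, so a site bound strongly in few cells and one bound weakly in many cannot be told apart, and no cell type could be checked. With 1 group no test between conditions was possible, and the intervals given are 95% Wilson intervals that cover counting error over peaks only.

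Mad is the fly Smad that is phosphorylated by receptors of Dpp and other bone morphogenetic proteins (BMPs), enters the nucleus with the co-Smad Medea and binds DNA. At a divergent promoter a pair of genes is transcribed away from each other out of one short shared interval, an arrangement common among fly housekeeping genes. Core promoter elements typical of such genes are the DNA replication-related element (DRE), bound by DREF and containing a core also bound by BEAF-32, the site of M1BP, and the sequences known as Ohler motifs 6 and 7.

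The intervals below show what lay between the TSSs of strongly bound pairs. They were read from the RefSeq release 6 genome (dm6), plus strand, from the base after the TSS of the minus-strand gene to the base before the TSS of the plus-strand gene. Capitals mark matches on either strand to the DRE (TATCGATA), its core (CGATA, which overlaps both ends of every DRE), the M1BP site (GGTCACACT) and Ohler motifs 6 and 7, and a stretch with no capitals holds none of these. Chro/Ssl1 and Tcs5/CHMP2B are the strongest members and the others are strong members chosen, after the matches were seen, because they differ in the elements they hold.
Chro/Ssl1, chr3L:22878985-22879088: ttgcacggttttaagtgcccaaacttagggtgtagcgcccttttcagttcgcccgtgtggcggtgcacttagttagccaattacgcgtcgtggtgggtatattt
Tcs5/CHMP2B, chr3L:5139396-5139618: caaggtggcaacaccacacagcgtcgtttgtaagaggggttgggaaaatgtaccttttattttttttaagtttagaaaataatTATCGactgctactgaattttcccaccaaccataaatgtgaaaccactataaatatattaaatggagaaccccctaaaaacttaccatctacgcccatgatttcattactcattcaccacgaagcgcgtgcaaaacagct
Atat/Shc, chr3L:9426759-9427009: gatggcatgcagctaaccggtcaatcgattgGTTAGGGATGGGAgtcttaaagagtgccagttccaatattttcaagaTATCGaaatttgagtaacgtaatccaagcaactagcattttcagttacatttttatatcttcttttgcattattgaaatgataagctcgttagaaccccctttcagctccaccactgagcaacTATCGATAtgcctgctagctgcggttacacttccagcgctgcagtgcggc
Mkk4/SLIRP2, chr3R:8650797-8651083: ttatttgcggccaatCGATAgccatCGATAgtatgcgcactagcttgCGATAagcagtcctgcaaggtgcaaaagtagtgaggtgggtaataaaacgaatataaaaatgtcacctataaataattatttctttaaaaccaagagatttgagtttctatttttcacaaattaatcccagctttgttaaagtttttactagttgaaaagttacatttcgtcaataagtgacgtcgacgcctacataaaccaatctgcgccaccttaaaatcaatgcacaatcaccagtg
CG10147/Bulli, chr3L:6488425-6488680: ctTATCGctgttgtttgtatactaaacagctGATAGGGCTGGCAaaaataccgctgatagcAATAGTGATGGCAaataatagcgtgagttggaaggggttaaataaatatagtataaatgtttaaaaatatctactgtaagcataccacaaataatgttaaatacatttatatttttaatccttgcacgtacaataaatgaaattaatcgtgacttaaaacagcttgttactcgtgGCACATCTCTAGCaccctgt
fws/Lamtor3, chr2L:17481030-17481230: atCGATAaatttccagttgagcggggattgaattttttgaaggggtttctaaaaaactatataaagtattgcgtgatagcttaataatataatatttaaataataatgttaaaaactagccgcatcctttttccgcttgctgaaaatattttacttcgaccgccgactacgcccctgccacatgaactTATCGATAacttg
elm/MED27, chr3R:5654862-5655138: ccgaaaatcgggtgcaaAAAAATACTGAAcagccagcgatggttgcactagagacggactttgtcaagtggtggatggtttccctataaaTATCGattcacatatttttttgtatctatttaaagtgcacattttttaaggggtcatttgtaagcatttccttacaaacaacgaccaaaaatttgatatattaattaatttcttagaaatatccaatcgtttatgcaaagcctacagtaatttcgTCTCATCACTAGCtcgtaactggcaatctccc
The last 2 stretches are the strongest members with a DRE and with an M1BP site, each trimmed to the element and its immediate surroundings.
Fbw5/CG9147, chr2L:6065965-6065994: actcgcttggtTATCGATAtcaggcaaatg
Ripalpha/RpL7, chr2L:10200979-10201007: ctccgcggccAGTGTGACCgtttggccga

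In these sequences the elements stood at various places. The Tcs5/CHMP2B interval held a single DRE core, at bases 84 to 88 of 223, centred 18 bp from the summit. Atat/Shc held a whole DRE at bases 202 to 209, a separate core at bases 79 to 83 and an Ohler motif 7 at bases 32 to 44, all 48 to 91 bp from its summit by their centres. Mkk4/SLIRP2 held 3 cores, all over 100 bp from the summit. CG10147/Bulli held 3 matches to Ohler motif 7, the nearest centred 52 bp from the summit. In fws/Lamtor3 the whole DRE was centred 56.5 bp from the summit, and elm/MED27 held a core, an Ohler motif 6 and an Ohler motif 7. The Chro/Ssl1 interval held no capitals, although the 201 bp around its summit, which lay 73 bp inside Chro, held a DRE core.

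The 10 members of highest signal had pooled values from 605 to 1094. Chro/Ssl1 (peak at chr3L:22878721-22879081, dm6) led, with a signal of 1094 in the pooled list, 489.6 in replicate 1 and 603 in replicate 2, and ranked 6 of all thresholded peaks. Chro encodes chromator, a chromatin protein of interbands and the spindle, and Ssl1 encodes a subunit of the general factor TFIIH. Tcs5/CHMP2B, a tRNA modification enzyme beside a subunit of the ESCRT-III membrane complex, followed (chr3L:5139331-5139663) with 992 pooled, 460.3 in replicate 1 and 534 in replicate 2. Next came a pair of promoters that each include a mitochondrial ribosomal protein gene. The nearer TSS was the partner's at both, that of CenG1A at 117 bp and that of Art3 at 111 bp. At mRpS23/CenG1A (chr2L:13835303-13835624) the pooled signal was 787, with 332 in replicate 1 and 456 in replicate 2. At Art3/mRpS10 (chr3R:15229349-15229712), where Art3 encodes an arginine methyltransferase, it was 783, with 320.4 in replicate 1 and 459 in replicate 2. These 4 members were higher in replicate 2, as most peaks of the list were.

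Pex11ab/CG8320 (chr2R:15992321-15992685), where Pex11ab serves peroxisome division, had 758 pooled, 371 in replicate 1 and 389 in replicate 2. Pdrg1/Pal1 (chr2R:9959727-9960113), where Pal1 is a peptide-amidating lyase, had 719 pooled, 311 in replicate 1 and 409 in replicate 2. Both lie on arm 2R, for which no sequence is shown. Fbw5/CG9147 (chr2L:6065937-6066254), an F-box protein gene with its partner, had 649.8 pooled, 289.6 in replicate 1 and 361 in replicate 2. The tank/CG12194 promoter (chr2L:4837734-4838015) had 643 pooled, 278 in replicate 1 and 362 in replicate 2. Lon/PIG-F (chr3L:19612149-19612507), a mitochondrial protease beside an enzyme of GPI anchor synthesis, was the most even of the 10, with 613 pooled, 309 in replicate 1 and 311 in replicate 2. RpS27/Nup37 (chr3R:25247381-25247651), a ribosomal protein beside a nuclear pore protein, closed the group with 605 pooled, 285 in replicate 1 and 319.9 in replicate 2. All 10 were higher in replicate 2. Of these summits, 6 lay between the TSSs of the pair. The others lay inside a gene, at Chro by 73 bp, at CG8320 by 117 bp, at tank by 138 bp and at RpS27 by 3 bp.

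**Figure D1:**
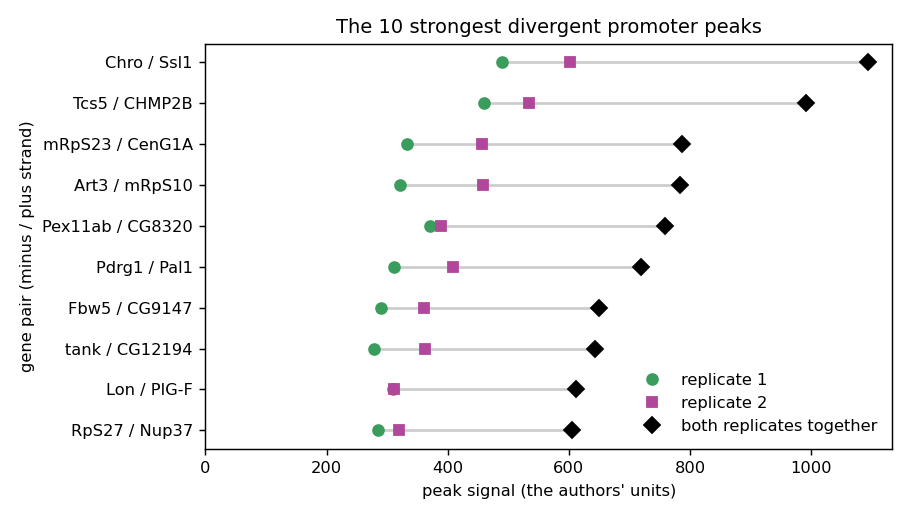
Signal of the 10 strongest divergent promoter peaks on the horizontal axis, in the authors' units, with 1 point each for replicate 1, replicate 2 and both together. Pooled values run from 605 at RpS27/Nup37 to 1094 at Chro/Ssl1, and at every pair the point of replicate 2 lies to the right of that of replicate 1, at Lon/PIG-F almost on it.

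Divergent promoters were bound more often than other promoters. Of the 1995 annotated divergent gene pairs, 763 held a thresholded summit, which is 38.2% (interval 36.1 to 40.4%), against 1151 of 10130 genes with no divergent promoter, which is 11.4% (10.8 to 12.0%). Counting the 1000 strongest peaks alone, 13.9% of the pairs were bound. A gene pair has 2 TSSs and so a wider window, and 1 summit can serve several overlapping genes, so summits were also counted per base. Bases nearest to a TSS with a divergent partner made up 1.70% of the sequence and held 333 summits per Mb. Bases nearest to a one-direction TSS held 102 per Mb, a ratio of 3.27. Sequence farther than 500 bp from these TSSs held 12.7 per Mb.

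Peaks below the threshold were counted at both promoter types as well. Of the 25742 pooled peaks that overlap no thresholded peak, 1176 had a summit at a divergent promoter, which is 4.57%. Per base these weak summits were at 516 per Mb at divergent promoters, against 388 per Mb at one-direction promoters, a ratio of 1.33. Peaks that overlap a thresholded peak were left out, while the bases of bound promoters were still counted. Divergent promoters were bound more often, so this lowers the ratio and the 4.57% share by construction. Neither can be set against the values for thresholded summits. Of the 1232 unbound pairs, 847 (68.75%) held such a weak peak, and 385 of all 1995 pairs held no pooled peak at all. Across the arms the bound share was 41.7% of the pairs of 3R, 41.6% of 3L, 38.7% of 2L, 35.0% of 2R and 31.5% of X, and on arm 4 it was 1 of 7 pairs.

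The members' share of the list was higher among strong peaks. They made up 24% of the 100 strongest peaks (16.7 to 33.2%), 27.75% of ranks 101 to 500, 24.2% of ranks 501 to 1000, 21.3% of ranks 1001 to 2000 and 18.3% of ranks 2001 to 3590 (16.5 to 20.3%). In the 3590 strongest peaks of replicate 1's own list the share at divergent promoters was 27% of the 100 strongest and 17.6% of ranks 2001 to 3590. In replicate 2's list the shares were 24% and 17.1%. Of the 10 strongest peaks 2 were members, near the members' 21.2% share of the whole list. The median pooled signal was 118 for members (quartiles 87.6 and 168), 106 for one-direction promoter peaks (82.9 and 153) and 103 for peaks away from promoters. The ratio of the members' median to that of one-direction peaks was 1.11, with 1.15 in replicate 1 and 1.08 in replicate 2. It was 0.983 when the opposite TSS had to lie within 200 bp, and 1.01 among the 1000 strongest peaks, so a higher signal per peak depended on how the pairs and the list were bounded.

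Just inside the list were mRpS18B/Kua with a signal of 70.6, bol/Dhpr with 70.6 and CG11586/VhaM9.7-a with 70.5. Just outside it, summits at ash1/Taf6, faf/CG2126 and ana1/CG13623 had signals between 70.4 and 70.5, so the boundary of the list separated nearly equal peaks. The 500 bp limit on the summit cut no such dense group: the member farthest from its TSS was at 439 bp, near rno, and the nearest promoter-like summit outside was at 510 bp, near CG5854. The limit on the distance between TSSs did pass through occupied pairs, with members at 500 bp (Polr2I) and 498 bp (Pax), and strong peaks just past it, such as one of 574 at 505 bp (CG5098).

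Summits sat in the shared interval. Of the 760 members, 609 lay between the TSSs, which is 80.1% (77.1 to 82.8%), although these intervals made up 21.4% of the bases assigned to divergent promoters. That is 1245 summits per Mb between the TSSs against 84.3 per Mb outside them, a ratio of 14.8. The nearest TSS was on the plus strand for 384 members and on the minus strand for 376, and 317 summits lay within 50 bp of the midpoint of the pair. The median pooled signal was 119 for members between the TSSs and 103 for the 151 outside. In replicate 1 these medians were 57.8 and 57.1, and in replicate 2 65.0 and 62.9.

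**Figure D2:**
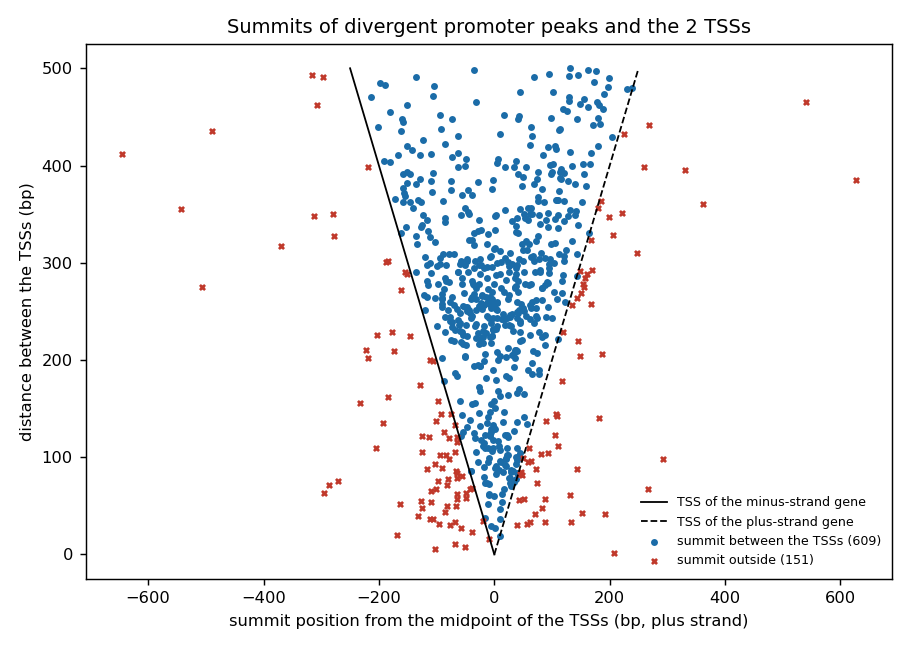
Each member's summit by its distance in bp from the midpoint of its TSSs (horizontal axis) and the distance in bp between them (vertical axis), with lines for the TSSs of the minus-strand and the plus-strand gene. Of the 760 summits, 609 lie between the TSSs and 151 inside one of the genes.

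One-direction promoter peaks were also mostly upstream of their TSS, 1111 of 1330 (83.5%), beside 607 of 760 members (79.9%). The median member summit was 55 bp upstream of the nearest TSS and the median one-direction summit 96.5 bp upstream. Part of that gap follows from the geometry, since a base between TSSs at most 500 bp apart is never more than 250 bp upstream of the nearer one. At equal distance the density of summits was higher at divergent promoters in every 50-bp bin from 250 bp upstream to 249 bp downstream, with only 3 to 5 member summits in the bin farthest upstream and in the bins past 150 bp downstream. At 101 to 150 bp upstream it was 1640 per Mb at divergent promoters against 239 per Mb at one-direction promoters. At 51 to 100 bp upstream the values were 1559 and 319, at 1 to 50 bp upstream 1046 and 325, and from 0 to 49 bp downstream 413 and 113. Beyond 150 bp downstream the densities at divergent promoters were at most 28.4 per Mb.

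**Figure D3:**
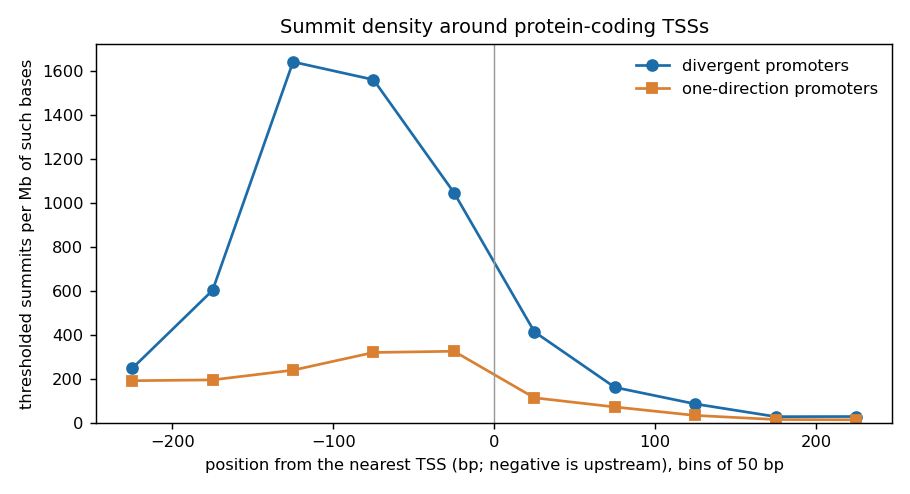
Thresholded summits per Mb by distance from the nearest TSS in 50-bp bins, for divergent and one-direction promoters. The divergent curve peaks at 1640 per Mb 101 to 150 bp upstream, where the one-direction value is 239.

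Occupancy depended on the distance between the TSSs of a pair. Pairs 201 to 300 bp apart were bound most often, 256 of 542 or 47.2% (43.1 to 51.4%). The share was 34.7% for pairs 0 to 100 bp apart, 35.1% at 101 to 200 bp, 39.5% at 301 to 400 bp and 28.1% (23.0 to 33.8%) at 401 to 500 bp. The interval of the 201 to 300 bp bin did not overlap those of the bins at 0 to 100, 101 to 200 and 401 to 500 bp. The members of the same bin also had the highest median signal, 128 pooled, 65.8 in replicate 1 and 71.0 in replicate 2. In the other bins the pooled median was 103 to 109, the replicate 1 median 50.1 to 56.0 and the replicate 2 median 59.7 to 64.5.

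The place of the summit changed with that distance as well. At 0 to 100 bp, 40.9% of summits lay between the TSSs, where 7.03% of the bases lay. From 201 bp on the share between was 89.4 to 91.3%, with 21.8 to 31.3% of the bases. Within the interval, summits of pairs 201 to 300 bp apart lay in its central 50% in 65.3% of cases (59.0 to 71.0%), where even placement would give 50%. At 401 to 500 bp the central share was 36.9% (27.4 to 47.6%), so most summits of the widest pairs stood closer to one TSS than to the middle. Among summits between the TSSs the median distance to the nearer TSS was 17 bp, 44 bp, 82 bp, 90 bp and 100.5 bp from the narrowest to the widest bin. Beyond 200 bp of separation it thus changed little.

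**Figure D4:**
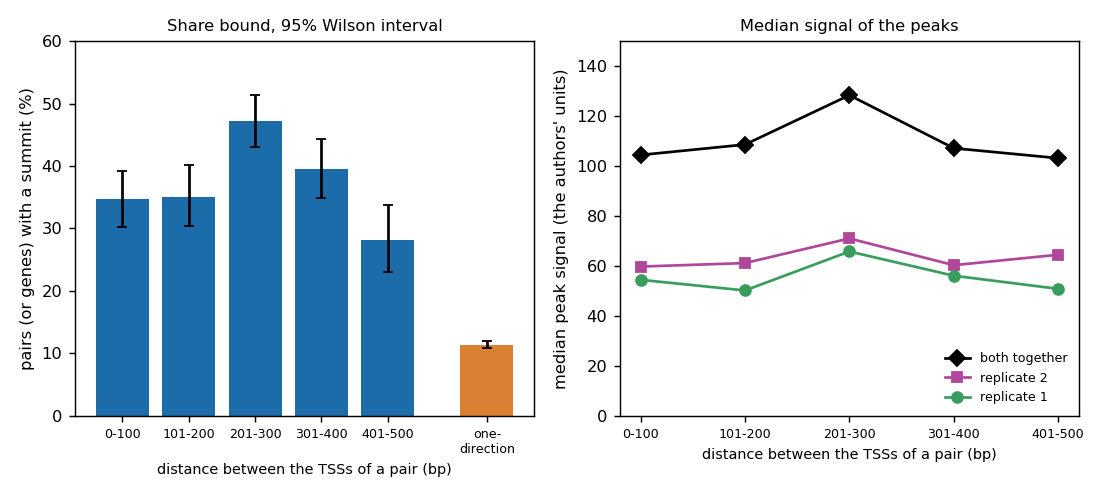
Divergent pairs by the distance between their TSSs in 100-bp bins, with the percent of pairs that held a thresholded summit (left, bars with 95% Wilson intervals, beside the 11.4% of genes with a one-direction promoter only) and the median peak signal of the members in the pool and in either replicate (right). The 201 to 300 bp bin has the highest bound share, 47.2%, and the highest median pooled signal, 128.

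Some promoters held more than 1 summit. Of the bound pairs, 48 had at least 2 thresholded summits, in 43 of them 199 to 246 bp apart with a median of 204 bp. Gene pairs were counted, so the same summits recur where genes share a promoter. Those at CG31650, for example, recur for CG33995, CG44000 and CG44001. At Fur1/Vps33B, a proprotein convertase beside a vesicle-tethering protein, the pooled signals were 439.7 and 91.2. Bdp1/CG6565, where Bdp1 serves RNA polymerase III, had 396 and 120.2. CG7601/CIA30 had 371 and 94.9, RpL34b/CG8132 had 348 and 117, and Kap-alpha3/Son had 347 and 81.9. In each of these 5, which were taken for their high signal, the second summit was far below the first. They do not stand for all 48 pairs. At some others the summits were closer, such as Cp190/CG4338 with 275 and 235, a pair named after its values were seen. Peaks were mostly 396 bp wide, so peaks with summits that close overlap, and whether the caller's own spacing set this distance was not tested. Neighbouring peaks can take their replicate value from 1 replicate peak, as both at RpL28/eIF1 did (131 in replicate 1 and 147 in replicate 2).

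Members were more often strong in both replicates than other peaks were. Presence in both replicates' whole lists was nearly fixed by the list, with 760 of 760 members, 1326 of 1330 one-direction peaks and 1499 of 1500 peaks away from promoters. Among the 3590 highest values of both replicates were 610 members, 80.3% (77.3 to 82.9%), against 989 one-direction peaks, 74.4% (71.9 to 76.6%), and 1083 peaks away from promoters, 72.2%. A further 80 members were among the highest of replicate 1 alone, 65 of replicate 2 alone and 5 of neither. Being among the highest values depends on the signal itself. The members' median signal was 1.15 times that of one-direction peaks in replicate 1 and 1.08 times in replicate 2. Peaks away from promoters had the lowest median in either replicate. Whether the shares differ among peaks of equal signal was not tested. Spearman's rho between the replicates' signals was 0.762 across member peaks, 0.704 across one-direction peaks and 0.674 across the rest. These describe peaks of 2 libraries that also made the pooled list. Replicate 2 was the higher for 542 members (71.3%), and the median log2 ratio of replicate 2 to replicate 1 was 0.19 for members (SD 0.47 across peaks), 0.28 for one-direction peaks and 0.32 for the rest.

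Single members departed from this. CG11723/Tbcd, where Tbcd is a tubulin-folding cofactor, had 37.1 in replicate 1 and 104 in replicate 2, a log2 ratio of 1.49. The ratio was 1.37 at twin/cav, a deadenylase and a telomere protein. In the other direction Rab8/Usp32, a vesicle-traffic GTPase and a ubiquitin protease, had 81.2 in replicate 1 and 42.8 in replicate 2, a log2 ratio of -0.93. Sec61alpha/Daxx, a translocon subunit and a histone chaperone, had -0.88, and Etfb/CG7789 had -0.80. With 1 value per replicate these differences have no error of their own.

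The genes at the bound promoters were described by 12 lists, beside all genes of divergent pairs, of which 1475 of 3815 (38.7%) were in a bound pair. A peak between genes cannot be assigned to one of them, and the nearest TSS was the gene's own for 769 of the 1475. Among cytosolic ribosomal protein genes 31 of 37 at divergent promoters were bound, 83.8%, with a median pooled signal of 205, where the median over all bound genes was 120.1. Of ribosomal protein genes without a divergent promoter 66.1% were bound too. RpS27 led with 605, then RpL7 with 557 and RpL34b with 348, and the nearest TSS was the ribosomal protein gene's own in 26 of the 31.

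Mitochondrial ribosomal protein genes mostly had a divergent promoter, 54 of 75. Of these 54, 29 were bound, 53.7% (40.6 to 66.3%), against 5 of the 21 with a one-direction promoter, 23.8% (10.6 to 45.1%), and these intervals overlap. Over all genes the shares were 38.7% and 11.4%. The strongest were mRpS23, mRpS10 and, with 591, mRpL23. The nearest TSS was their own for 11 of the 29. Insulator and promoter factor genes had 8 of 12 bound, 66.7% (39.1 to 86.2%), where the share over all genes was 38.7%. Of this list's 7 genes with a one-direction promoter 4 were bound, 57.1%, and the intervals of both shares overlap. Among the 8 were Chro and Cp190 (275), an insulator protein gene. Another was Nelf-E (313), a subunit of the pausing factor NELF that shares its promoter with RpL14. The gene of DREF itself, Dref, shares a bound promoter with RpL13 (205), and M1BP had a peak of 138. Only 2 of the 8 were the nearest gene. The last pair of genes was named after their values were seen.

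Other housekeeping lists were near the 38.7% of all genes. Bound were 8 of 19 translation factor genes (42.1%), led by eIF1 with 284, eIF4EHP with 189 and eIF3h with 185. In the Mediator and general transcription factor list, 11 of 30 (36.7%) were bound, led by MED30 with 289.8, MED27 with 287 and MED7 with 169.96. The respiratory chain and ATP synthase list had 14 of 39 (35.9%), led by ND-51 of complex I with 258, ND-MWFE with 194 and COX5A with 148. DNA repair and replication genes had 8 of 23 (34.8%), among them Rad60 at 164 and mei-41, the fly ATR kinase, at 163. Of tRNA synthetase genes 7 of 21 (33.3%) were bound, led by SerRS with 264, GluProRS with 241 and IleRS with 165. Proteasome genes had 8 of 24 (33.3%), led by the lid subunits Rpn5 with 216, Rpn3 with 149 and Rpn6 with 121. The cell cycle list, taken by symbol (Cdk, Cyc and APC), had 3 of 8 (37.5%), namely Cdk12 (98.4), Cdk1 (95.5) and Cdk7 (88.5). Of its 16 genes with a one-direction promoter 7 were bound, 43.75% (23.1 to 66.8%). In the other lists of this paragraph the one-direction share was the lower.

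Of 36 genes of the BMP pathway, in which Mad itself acts, and its targets, 8 had a divergent promoter and 1 of the 8 was in a bound pair. That is 12.5%, with an interval of 2.24 to 47.1% that includes the 38.7% of all genes. The bound gene was sax, a type I receptor gene, which shares its promoter with Nop17l and had a peak of 70.7 with the Nop17l TSS the nearer. Replicate 1 gave 42.0 there and replicate 2 gave 20.6. Unbound were the promoters of Mad, Med (the co-Smad), Smurf (a ubiquitin ligase of the pathway), gbb (a ligand), magu, put (a type II receptor) and tok (a protease that frees ligands). Among the 28 of these genes with a one-direction promoter, 6 were bound, 21.4% (10.2 to 39.5%), where the share over all such genes was 11.4%. Odorant and gustatory receptor genes, which serve sensory neurons, had 11 genes at divergent promoters and none bound.

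Motifs were sought on both strands in the 201 bp around each member's summit. The same windows were taken at one-direction summits and at flanks centred 600 bp to either side of each member. They were also taken at the midpoints of bound and unbound pairs. A member window can take in both TSSs of a pair. The median distance of the summit to the nearest TSS was 65 bp at members and 119 bp at one-direction peaks. What part this had in motif differences between members and one-direction windows was not tested. The DRE was in 101 member windows, 13.3% (11.1 to 15.9%), against 8.42% of one-direction windows (7.05 to 10.04%) and 0.395% of flanks. It was as frequent at the midpoints of bound pairs (11.1%) as at those of unbound pairs (10.9%). Its core CGATA was in 50.3% of members, 39.1% of one-direction windows and 20.9% of flanks, and again at 46.7% of bound and 46.8% of unbound midpoints. The M1BP site was in 50 members, 6.58% (5.03 to 8.57%), 4.59% of one-direction windows and 0.329% of flanks, with 5.50% of bound and 5.76% of unbound midpoints. Among the 1000 strongest peaks 3.91% of members held the M1BP site. Both shares also moved with the window, the DRE to 6.58% and 20.9% and the M1BP site to 2.63% and 12.4% within 50 bp and 200 bp of the summit. For these elements the promoters differed from the flanks, while the intervals of bound and unbound divergent pairs overlapped. The flanks were richer in G and C, with a median of 51.2% against 35.8% in member windows. The part of base composition in the difference from the flanks was not tested.

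Ohler motif 7 and the GAGA factor site GAGAGAG were the only 2 of the 15 motifs whose intervals at bound and unbound midpoints did not overlap. Midpoints were counted per gene pair, so promoters shared by several genes recur and these intervals can be too narrow. For GAGAGAG the limits nearly met, at 2.23% and 2.26%. Ohler motif 7 was in 150 members, 19.7% (17.1 to 22.7%), against 10.2% (8.64 to 11.9%) of one-direction windows and 2.43% of flanks. At midpoints it was in 12.3% of bound pairs (10.2 to 14.8%) and 7.22% of unbound pairs (5.91 to 8.81%). Windows at the TSS of one-direction promoters held it in 8.60% of bound and 3.52% of unbound genes. Ohler motif 6 was in 2.63% of members, 1.05% of one-direction windows and 0 of 1520 flanks, with 2.62% of bound and 3.08% of unbound midpoints. At least one of the DRE, the M1BP site and both Ohler motifs was in 37.1% of members and 20.8% of one-direction windows. Those windows also differ in their distance from TSSs, as stated above. At midpoints the shares were 27.3% of bound pairs (24.2 to 30.5%) and 23.5% of unbound pairs (21.2 to 25.9%), which overlap. At one-direction promoters other elements were more frequent in bound than in unbound genes. There the DRE was in 10.3% of bound and 4.57% of unbound genes, its core in 42.4% and 32.2%, and the M1BP site in 4.43% (3.39 to 5.78%) and 1.35% (1.13 to 1.61%).

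The Mad motif was rare at members and at the other thresholded peaks alike. GCCGNCGC, to which Mad binds, was in 9 members, 1.18% (0.624 to 2.24%), against 1.95% of one-direction windows (1.34 to 2.85%), 1.27% of windows at peaks away from promoters (0.812 to 1.97%) and 5% of flanks, and its strongest holder was CG7130/RpLP0 with a signal of 273. Below-threshold summits at divergent promoters held GCCGNCGC more often, in 3.32% (2.44 to 4.50%), and their windows had a median of 41.8% G and C. Bound midpoints held it in 0.524% and unbound midpoints in 1.14%. GGCGCC, a shorter Mad site, was in 3.42% of members, 5.49% of one-direction windows and 6.64% of flanks. The Smad box CAGAC was in 17.8%, 18.0% and 26.6%, and the Dpp silencer element in none of the members or one-direction windows and 0.132% of flanks. The flanks were richer in G and C, with a median of 51.2% against 35.8% in member windows and 38.8% in one-direction windows, and the part of base composition in these differences was not tested. At one-direction promoters GGCGCC was in 5.13% of bound genes (3.99 to 6.56%) and 3.46% of unbound genes (3.10 to 3.86%). At midpoints it was in 1.70% of bound and 1.87% of unbound pairs. GAGAGAG was in 8 members, 1.05% (0.534 to 2.06%), against 5.94% (4.79 to 7.34%) of one-direction windows and 2.50% of flanks. At midpoints it was in 1.18% of bound pairs (0.622 to 2.23%) and 3.08% of unbound pairs (2.26 to 4.21%). At one-direction promoters the order was the opposite, with 8.95% of bound genes (7.43 to 10.7%) and 5.18% of unbound genes (4.74 to 5.66%). The strongest of the 8 was the promoter of CG32264, ntc and IntS10, with a signal of 158.

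Among the remaining motifs CAGCTG and TATAAA were more frequent at members than at one-direction summits, with intervals that did not overlap. Of the E-boxes, CAGCTG was in 16.7% of members (14.2 to 19.5%), 12.1% of one-direction windows (10.5 to 14.0%) and 12.9% of flanks, and CACGTG in 3.16%, 3.01% and 3.09%. The Zelda site CAGGTAG was in 0.526%, 0.602% and 2.24%, and AGATAAG, to which GATA factors bind, in 1.84%, 2.63% and 1.45%. TATAAA was in 35.3% of members (31.9 to 38.7%), 28.1% of one-direction windows (25.8 to 30.6%) and 9.54% of flanks. It was also in 33.6% of windows at peaks away from promoters (31.3 to 36.0%). Bound and unbound midpoints had overlapping intervals for both motifs. CAGCTG was in 13.8% of bound and 16.0% of unbound midpoints, and TATAAA in 39.4% of either. The strongest holders were RpS27/Nup37 for CAGCTG, mRpL23/CG9004 for CACGTG, Pdrg1/Pal1 for the Zelda site, CG11309/CG7632 (422) for AGATAAG and Chro/Ssl1 for TATAAA. A match describes letters only, and none of these is shown to be a site in use.

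**Figure D5:**
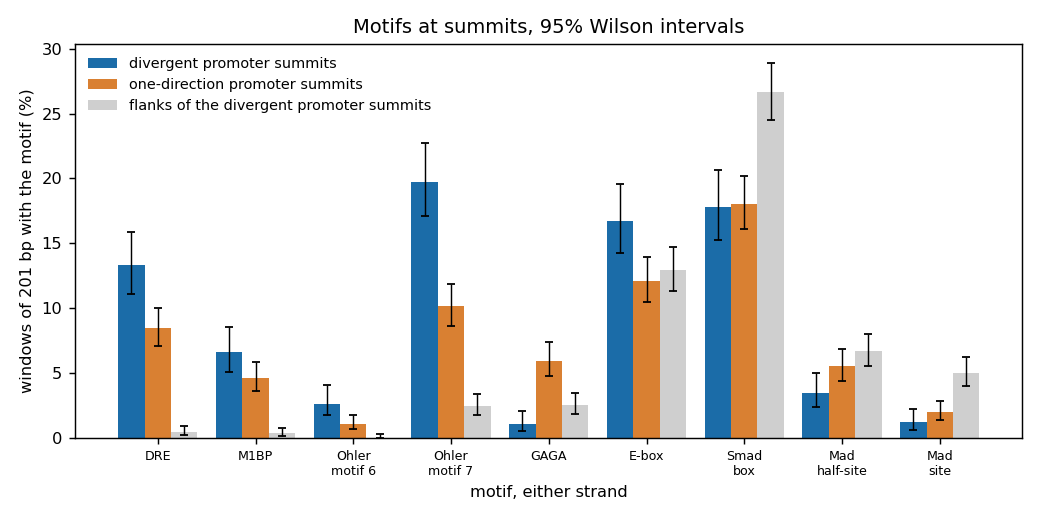
Percent of windows of 201 bp that held each motif at member summits, one-direction summits and flanks centred 600 bp from member summits, with 95% Wilson intervals. The E-box is CAGCTG, the Mad site GCCGNCGC and the Mad half-site GGCGCC. Ohler motif 7 reaches 19.7% of members against 10.2% of one-direction windows, while the GAGA site is at 1.05% against 5.94%.

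Within the members the M1BP site went with low signal. In 4 groups of 190 members each, from the strongest to the weakest, it was in 2.63% (1.13 to 6.01%), 4.74%, 8.95% and 10% (6.50 to 15.1%). Members with it had a median pooled signal of 94.5 against 119 without it, 43.2 against 59.0 in replicate 1 and 57.5 against 65.9 in replicate 2. The DRE core was in 40.5% of the strongest group and 51.6 to 54.7% of the others. The DRE, at 11.6 to 16.3%, and Ohler motif 7, at 18.4 to 21.1%, varied little between these groups. The strongest member with an M1BP site was Ripalpha/RpL7 with 557, printed above, and the strongest with Ohler motif 6 was elm/MED27 with 287. Median distances of the nearest match from the summit were 47.5 bp for the DRE, 51 bp for Ohler motif 7 and 55.5 bp for the M1BP site.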

How the data were processed

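The authors deposited peak lists with a signal per peak and a −log10 q value, on builds dm6 and dm3, made from the alignments of the replicates and a control, per the deposited text files. For the peak caller, aligner, signal formula and read depth, the sources used here name nothing. The deposited −log10 q values were tied at their maximum of 3.71 for 2544 of 3590 peaks, so signal was used to rank. The dm6 lists alone were used, with Ensembl release 115 annotation and the RefSeq release 6 genome.

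TSSs were the starts of protein-coding transcripts of protein-coding genes on arms X, 4, 2L, 2R, 3L and 3R, 19253 in all. A pair was 2 genes with TSSs on opposite strands, transcribed apart, at most 500 bp between them, and it was bound if a thresholded summit of the members' rule fell to it. A replicate's value was the highest signal among its peaks that overlapped the member by at least 1 bp. Of the 760 members 4 were equally near to 2 TSSs. Bases were assigned to the nearest TSS within 500 bp. The 15 motifs were matched exactly on both strands. The tool versions were Python 3.11.15, numpy 2.4.6, scipy 1.17.1 and pandas 2.3.3. The classification and motif search were tested on simulated data with known answers.

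Members and gene lists were chosen with earlier results of these data known. Genes were named by rule: the 10 strongest members, up to 3 genes per list, the strongest member per motif, the 3 members with the highest and the 3 with the lowest log2 replicate ratio among the stronger members, up to 5 pairs with several summits, and the 3 weakest members. A member selected in this way was left out of the text. Bins of TSS distance, densities, ranks, midpoint and one-direction promoter windows, the unbound BMP genes and peaks named at the limits of the rule were chosen after the data were seen.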

Additional observations from a re-analysis of the deposited data

How the results depend on the processing

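Of 59 alternative values, 40 stayed near the reported value (a count of members within 1.5 times, another value within its counting interval or the spread of the replicates), 18 moved and 1 reversed. With the opposite TSS within 200 bp there were 228 members, 31.0% of pairs were bound, the median signal was 107, the signal ratio to one-direction peaks reversed to 0.983, 56.1% of summits lay between the TSSs and 8.77% of members held an M1BP site. With the opposite TSS within 1000 bp there were 949 members and 35.7% of pairs were bound. Among the 1000 strongest peaks there were 256 members, 13.9% of pairs were bound, the median signal was 203, the ratio 1.01 and the M1BP share 3.91%. With 1 TSS per gene there were 692 members and 73.6% of summits lay between the TSSs. Motif windows of 50 bp to each side gave 6.58% for the DRE and 2.63% for the M1BP site, and windows of 200 bp gave 20.9% and 12.4%. Shorter windows hold fewer bases by construction; the cause of the other shifts was not tested.

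Leaving out either replicate, with the 3590 strongest peaks of the other alone, gave 727 to 775 members, 36.7 to 38.4% of pairs bound, a signal ratio of 1.10 to 1.11, 80.1 to 80.7% between the TSSs, 12.3 to 14.2% with a DRE and 5.81 to 5.91% with an M1BP site. The median signal was 54.4 to 64.4 on the scale of single replicates, which is not that of the pooled list. No paired analysis was possible because the 2 replicates form 1 group with no second condition. The unknown read depth leaves it unsettled whether an unbound pair lacks a peak or lies below detection.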
